A study of Homo sapiens with 9 samples.

Results

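The core autophagy genes described here are 37 genes of the machinery that builds autophagosomes, taken by symbol from a written list. The rule itself uses no measured value, but the list was chosen with earlier results of these data known. All 37 were found among the 25382 entries of the count table. RNA was sequenced from 501mel, an established human melanoma cell line, 24 h after DsiRNAs were introduced with lipofectamine. DsiRNAs are short synthetic duplexes that the enzyme Dicer cuts into silencing RNAs. The groups were TBX3 DsiRNA 13.6, TBX3 DsiRNA 13.8 and the control DsiRNA NC1, each with 3 libraries that the labels call biological replicates. All 3 groups shared the line, the lipofection, the harvest time and the DMEM medium with fetal bovine serum, so no library comes from cells without lipofection. The series concerns TBX3, a T-box transcription factor, in pigment cells and melanoma, and each TBX3 arm rests on 1 DsiRNA. The labels do not say whether replicates were separate cultures, so p-values measure the spread between these samples, which may be technical.

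Autophagy encloses cytoplasm in a double membrane, the autophagosome, which fuses with the lysosome. The ULK kinase complex starts the process, a class III phosphatidylinositol 3-kinase marks the forming membrane with PI3P, and ATG9 vesicles and ATG2 supply lipid. A pair of ubiquitin-like conjugation systems then attaches ATG8 proteins, the LC3 and GABARAP families, to the membrane, and cargo receptors such as SQSTM1 bind both ATG8 and ubiquitinated cargo. Much of the control of autophagy acts on proteins and their modification, so an mRNA level is not a measure of autophagic flux. In pigment cells, parts of this machinery have also been linked to melanosome formation and turnover.

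Libraries held 41592157 to 47531852 counted reads with 13.6, 47137721 to 52272147 with 13.8, and 38105026 to 45386350 in control cells. Levels are CPM, a gene's reads divided by the library's total times its TMM scaling factor and multiplied by 1000000. TBX3 measured 46.4, 41.0 and 39.4 CPM with 13.6, 36.1, 33.7 and 36.2 CPM with 13.8, and 88.6, 83.8 and 84.0 CPM in control cells. TBX3 fell with each reagent, by 1.02 ± 0.07 and 1.27 ± 0.07 on the log2 scale (SE). Markers fixed for melanocytes summed to 13807 to 14961 CPM with 13.6, 17287 to 18100 CPM with 13.8, and 13330 to 15339 CPM in control cells, and all 7 were detected. With 13.6, TYR and SOX10 were higher and MLANA, DCT and TYRP1 lower, and with 13.8, TYR, DCT and TYRP1 were higher and MLANA, SOX10 and MITF lower. TYRP1 alone averaged 2694 CPM with 13.6, 7829 CPM with 13.8 and 3603 CPM in control cells. The 7 interferon-response genes summed to 121 to 137.9 CPM with 13.6, 174 to 209.6 CPM with 13.8, and 43.0 to 55.1 CPM in control cells, with 6 of 7 higher and MX1 lower under each DsiRNA. The 8 fibroblast markers summed to 7.12 to 8.73 CPM with 13.6, 24.7 to 25.8 CPM with 13.8, and 5.45 to 6.55 CPM in control cells, and all 7 that were tested were higher with 13.8. None of the 8 was at 0 in all libraries, and COL3A1 was too low to test. Lists for leukocytes, keratinocytes and endothelium were fixed too. Their only calls against control were with 13.6, CD68 higher by 0.44 and VWF lower by 1.46. VWF averaged 0.14 CPM with 13.6 and 0.40 CPM in control cells. None of these lists was tested for a part in the changes below. In RNA from a whole culture, fewer cells of a type and less RNA per cell cannot be told apart.

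Of the 37 genes, 35 passed the filter on low counts and were tested. The other 2 were near 0 in every library. ULK2, a kinase closely related to ULK1, had 7, 5 and 6 reads with 13.6, 6, 10 and 5 reads with 13.8, and 13, 8 and 19 reads in control cells. MAP1LC3A, an LC3 isoform, had 0, 1 and 0 reads with 13.6, 1, 4 and 2 reads with 13.8, and 1 read in each control library. Together the 37 genes took 0.374% to 0.381% of the reads with 13.6, 0.321% to 0.326% with 13.8, and 0.382% to 0.400% in control cells. The share was lowest in the 3 libraries of 13.8, and the groups did not overlap. This sum follows its most abundant genes. In control replicate 1, SQSTM1, TAX1BP1 and MAP1LC3B held 40701, 20030 and 19537 of the 181345 reads of the 37 genes. In 13.8 replicate 1 they held 31731, 14686 and 9107 of 151188. The lower share is therefore not a fall of every gene.

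Per kilobase of exon, the cargo receptor SQSTM1 had the highest level of the 37 genes in every group, at 216 ± 4.9 CPM per kb with 13.6, 208 ± 16.2 CPM per kb with 13.8, and 245 ± 28.8 CPM per kb in control cells (SD, n = 3 each). TAX1BP1, a receptor for ubiquitinated cargo, MAP1LC3B, an LC3 isoform, and GABARAP followed. MAP1LC3B stood at 103 ± 5.7 CPM per kb with 13.6, 63.3 ± 1.6 CPM per kb with 13.8, and 129 ± 10.8 CPM per kb in control cells. GABARAP stood at 95.7 ± 2.5 CPM per kb with 13.6, 111 ± 10.2 CPM per kb with 13.8, and 97.3 ± 10.4 CPM per kb in control cells. With 13.8, GABARAP was therefore the second of the 37 in level per kb and MAP1LC3B the fourth, while in control cells MAP1LC3B was the second. At the other end of the 35 tested genes were ATG10, the E2-like enzyme that joins ATG12 to ATG5, ATG2B, a lipid transfer protein, and, except with 13.8, where PIK3C3 was just below it at 3.55 CPM per kb, ATG16L2, a relative of ATG16L1. These 3 measured 1.66, 1.94 and 1.44 CPM per kb with 13.6, 1.63, 1.76 and 3.56 CPM per kb with 13.8, and 1.70, 1.87 and 2.00 CPM per kb in control cells.

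**Figure D1:**
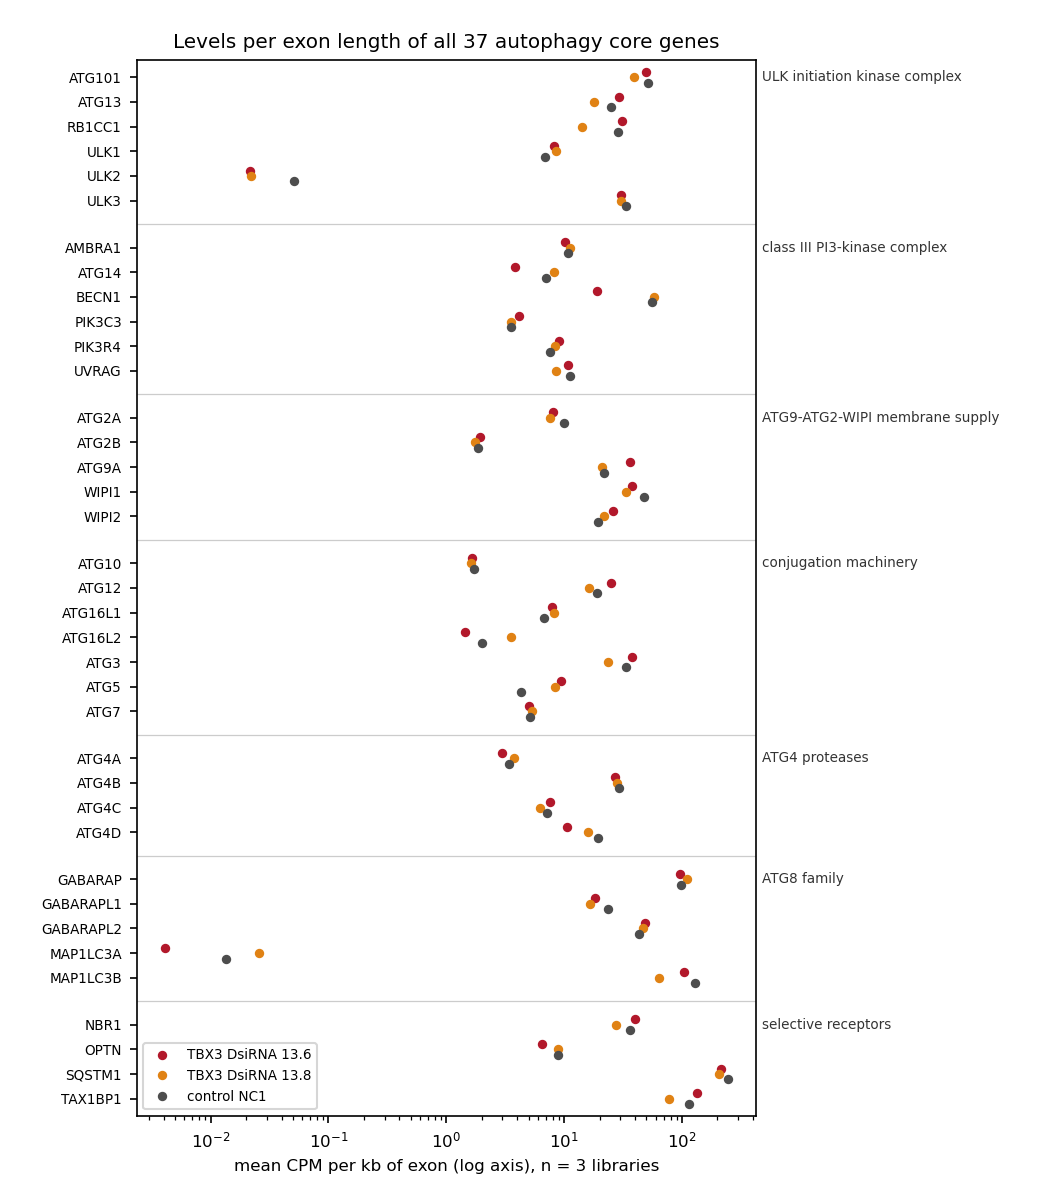
Mean level of each of the 37 genes (rows, grouped by role) in CPM per kilobase of exon on a log axis, with DsiRNA 13.6 in red, 13.8 in orange and control in grey, n = 3 libraries each. SQSTM1 is the rightmost gene at 208 to 245 CPM per kb, while ULK2 and MAP1LC3A lie far to the left of the other 35.

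Each comparison asks which of these genes differed after TBX3 knockdown. With 13.6, 19 of the 35 tested genes were called by the quasi-likelihood test of edgeR (adjusted p under 0.05), 9 higher and 10 lower than in control cells. That is 54.3%, against 49.9% of all 14731 genes tested, of which 24.9% were higher and 25.0% lower. With 13.8, 21 of the 35 were called, 6 higher and 15 lower, which is 60.0%, against 55.5% of all genes, 27.5% higher and 27.9% lower. Both shares, taken without regard to direction, were near the background. By direction, the 21 calls with 13.8 split into 6 higher and 15 lower, a less even split than that of all genes (27.5% and 27.9%). That split was not tested. Counts by role below stand against these same shares of all genes, and a role holds only 4 to 7 genes, so nothing particular to a role is read from them. The median log2 fold change was −0.02 with 13.6 and −0.06 with 13.8, beside −0.01 and 0.01 over all genes tested. The median size of the change, sign removed, was 0.21 on the log2 scale with 13.6 and 0.23 with 13.8, smaller than the 0.31 and 0.35 over all genes. Called changes of at least 0.5 on the log2 scale numbered 5 of 35 with 13.6, 14.3% against 25.0% of all genes, and 8 of 35 with 13.8, 22.9% against 30.4% of all genes. All 3 libraries of 13.6 lay beyond all 3 controls in 23 of the 35 tested genes, 11 above and 12 below, which is 65.7% against 56.0% of all genes tested. With 13.8 that held for 22 of 35, 7 above and 15 below, which is 62.9% against 59.1% of all genes.

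The genes are sorted here by their calls under the 2 reagents. Both comparisons use the same 3 control libraries and call about as large a share of all genes, so nothing is read from how many fall in each class. ATG5, ATG16L1 and WIPI2 were higher and ATG2A, ATG4D, ULK3, WIPI1, MAP1LC3B and GABARAPL1 lower with each DsiRNA. ATG12, ATG13 and TAX1BP1 were higher under 13.6 and lower under 13.8, and ATG14 and ATG16L2 were lower under 13.6 and higher under 13.8. ATG9A, PIK3C3 and PIK3R4 (higher) and BECN1 and OPTN (lower) were called with 13.6 only. ULK1 (higher) and ATG3, ATG101, RB1CC1, UVRAG, SQSTM1 and NBR1 (lower) were called with 13.8 only. The 9 with no call against control were ATG2B, ATG4A, ATG4B, ATG4C, ATG7, ATG10, AMBRA1, GABARAP and GABARAPL2, with log2 fold changes between −0.20 and 0.19.

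**Figure D2:**
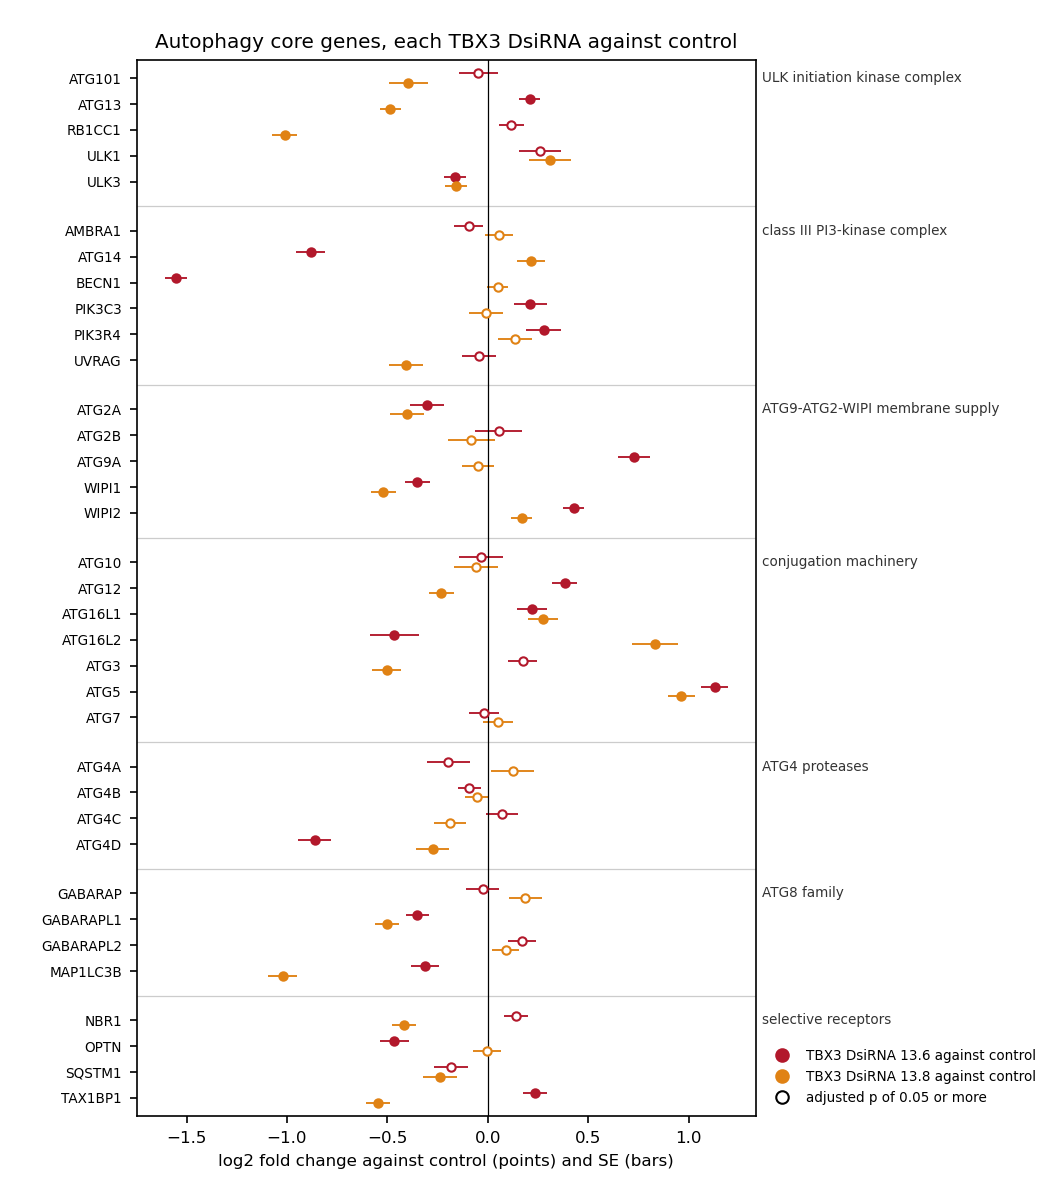
Log2 fold change of the 35 tested genes (rows, grouped by role) with DsiRNA 13.6 (red) and 13.8 (orange) against control, with bars for the SE, filled where the adjusted p is under 0.05. BECN1 at −1.55 is the lowest value and ATG5 is to the right under both reagents, at 1.13 and 0.96.

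Short sequences were looked up in the 3′ UTRs of these genes, because the genes that moved furthest differed between the DsiRNAs. The 7-base words GCTCTGT and AACTGTC had come out of an earlier word search in these same libraries, for 13.6 and 13.8 in that order, so their presence is a description and no independent support. The search used the longest 3′ UTR per gene in GENCODE 29 (GRCh38), on the transcript strand. GCTCTGT was held by 5 of 35 genes with a 3′ UTR, 14.3%, against 20.8% of 12470 genes. These were BECN1 and ATG14, which fell with 13.6, PIK3C3, which rose, and ULK1 and ATG2B, which had no call. Of the 30 without it, 8 fell and 8 rose with 13.6. The median log2 fold change was 0.05 in the 5 carriers and −0.03 in the others. Over the 12470 genes the medians with 13.6 were −0.09 with GCTCTGT and 0.02 without it. AACTGTC was held by 3 of 35, 8.57%, against 11.0% of the 12470, namely MAP1LC3B, TAX1BP1 and UVRAG, all 3 of which fell with 13.8. Of the 32 without it, 12 fell with 13.8 and 6 rose. The median log2 fold change was −0.55 in the 3 carriers and −0.05 in the others. Over the 12470 genes the medians with 13.8 were −0.19 with AACTGTC and 0.02 without it. RB1CC1, which fell as far as MAP1LC3B, did not hold it. The sites of the 5 genes that fell are shown with the word in capitals, a display chosen by outcome. Not shown are the sites of PIK3C3, ULK1 and ATG2B, the last at bases 337 and 6068 of its 3′ UTR.
BECN1, chr17:42810218-42810242, minus strand, GRCh38: gccgactctGCTCTGTgttagagat
ATG14 site A, chr14:55369029-55369053, minus strand, GRCh38: attcatgctGCTCTGTcgtagtttg
ATG14 site B, chr14:55368546-55368570, minus strand, GRCh38: tgctactctGCTCTGTtctggggaa
MAP1LC3B, chr16:87404758-87404779, plus strand, GRCh38: acaattaaaAACTGTCatcaaa
TAX1BP1 site A, chr7:27829086-27829110, plus strand, GRCh38: agtttgcagAACTGTCtgaataaag
TAX1BP1 site B, chr7:27829710-27829734, plus strand, GRCh38: gctgtatagAACTGTCactaacatt
UVRAG, chr11:76141919-76141943, plus strand, GRCh38: tctaggcctAACTGTCcctcttcct

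Of the ULK complex, which starts autophagosome formation, 5 members were tested. With 13.6, 1 rose and 1 fell, and with 13.8, 1 rose and 4 fell, while of all genes 24.9% rose and 25.0% fell with 13.6, and 27.5% rose and 27.9% fell with 13.8. ATG13 was the only member of the 5 called in opposite directions by the reagents. RB1CC1, also called FIP200, is the large scaffold of the complex. RB1CC1 had 214, 193 and 207 CPM with 13.6, 99.8, 87.6 and 93.4 CPM with 13.8, and 188, 187 and 191 CPM in control cells. Every 13.8 library lay far below the controls, and every 13.6 library above them. RB1CC1 fell by 50.4% with 13.8 (log2 fold change −1.01 ± 0.06, adjusted p = 2.82e-08 by edgeR), and with 13.6 it had a log2 fold change of 0.12 ± 0.06 without a call (adjusted p = 0.141 by edgeR). ATG13, the adaptor that links ULK1 to RB1CC1, had 137, 135.7 and 134 CPM with 13.6, 84.6, 85.3 and 81.1 CPM with 13.8, and 117, 119.5 and 115 CPM in control cells. No groups of ATG13 overlapped, with 13.6 above and 13.8 below the controls. ATG13 rose by 0.21 ± 0.05 on the log2 scale with 13.6 (adjusted p = 0.00489 by edgeR) and fell by 0.49 ± 0.05 with 13.8 (adjusted p = 4.71e-06 by edgeR).

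ATG101, which stabilises ATG13, averaged 71.3 ± 5.3 CPM with 13.6, 56.0 ± 5.1 CPM with 13.8, and 73.7 ± 9.5 CPM in control cells (SD, n = 3 each). ATG101 fell with 13.8 by 0.40 ± 0.10 on the log2 scale (adjusted p = 0.00335 by edgeR). In GENCODE 29, 42.7% of its exon bases are also exon of an antisense RNA gene. ULK1, the kinase itself, averaged 43.7 ± 3.3 CPM with 13.6, 45.2 ± 2.3 CPM with 13.8, and 36.5 ± 6.0 CPM in control cells. ULK1 rose with 13.8 by 0.31 ± 0.10 (adjusted p = 0.0219 by edgeR), a call that ended without control replicate 3 (0.19, adjusted p = 0.0624 by edgeR) or without 13.8 replicate 2 (0.28, adjusted p = 0.0694 by edgeR). ULK3, a related kinase, averaged 83.4 ± 2.1 CPM with 13.6, 83.6 ± 2.3 CPM with 13.8, and 93.3 ± 2.3 CPM in control cells. ULK3 fell by 0.16 ± 0.06 with each reagent. Each ULK3 call ended without control replicate 3, where it stood at −0.14 with 13.6 (adjusted p = 0.0600 by edgeR) and −0.14 with 13.8 (adjusted p = 0.0528 by edgeR). Leaving out replicate 1 or 3 of either DsiRNA also ended that reagent's ULK3 call, at log2 fold changes of −0.15, −0.15, −0.14 and −0.17.

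The class III PI3-kinase complex held the largest change of the 35 genes, that of BECN1 with 13.6. BECN1 encodes Beclin 1, the scaffold of both forms of the complex. BECN1 had 40.6, 39.9 and 40.9 CPM with 13.6, 124, 121 and 123 CPM with 13.8, and 121, 115 and 119.8 CPM in control cells. The 3 libraries of 13.6 lay close together and far below all others, and those of 13.8 lay at or just above the highest control. BECN1 fell by 66.0% with 13.6 (log2 fold change −1.55 ± 0.05, adjusted p = 5.55e-10 by edgeR), while with 13.8 its log2 fold change was 0.05 ± 0.05 (adjusted p = 0.446 by edgeR). Of its exon bases, 23.5% overlap the gene CNTD1 on the opposite strand. The library kit keeps strand, but the strand setting of the counting is not given in the sources used here. How reads common to such pairs were counted is therefore unknown.

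ATG14 directs the complex to autophagosome formation. ATG14 had 18.8, 17.5 and 17.8 CPM with 13.6, 41.6, 36.9 and 37.4 CPM with 13.8, and 33.8, 33.6 and 32.2 CPM in control cells. The libraries of 13.6 were the lowest and those of 13.8 the highest, with no overlap. ATG14 fell by 45.7% with 13.6 (log2 fold change −0.88 ± 0.07, adjusted p = 4.46e-07 by edgeR) and rose by 16.1% with 13.8 (0.22 ± 0.07, adjusted p = 0.0176 by edgeR). Without 13.8 replicate 1 the ATG14 rise stood at 0.16 and was no longer called (adjusted p = 0.0787 by edgeR). UVRAG takes the place of ATG14 in the endosomal form of the complex. UVRAG averaged 54.7 ± 0.9 CPM with 13.6, 42.5 ± 4.6 CPM with 13.8, and 56.4 ± 5.3 CPM in control cells (SD, n = 3 each). UVRAG fell with 13.8 by 0.41 ± 0.09 on the log2 scale (adjusted p = 0.00122 by edgeR) and stood at −0.04 ± 0.09 with 13.6 without a call. BECN1 and ATG14 were thus lower with 13.6 and UVRAG lower with 13.8.

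The catalytic subunit PIK3C3, also known as VPS34, and its regulatory kinase-like partner PIK3R4 rose with 13.6 by small amounts. PIK3C3 averaged 50.2 ± 3.7 CPM with 13.6, 43.1 ± 2.7 CPM with 13.8, and 43.4 ± 4.0 CPM in control cells (SD, n = 3 each), a rise with 13.6 of 0.21 ± 0.08 on the log2 scale (adjusted p = 0.0482 by edgeR). The PIK3C3 call ended when any of 6 single libraries was left out, at log2 fold changes of 0.19 and 0.16 (control replicates 1 and 3), 0.21 and 0.16 (13.6 replicates 1 and 3) and 0.21 in both cases for 13.8 replicates 2 and 3. PIK3R4 averaged 45.8 ± 1.4 CPM with 13.6, 41.6 ± 3.7 CPM with 13.8, and 37.8 ± 4.0 CPM in control cells. PIK3R4 rose with 13.6 by 0.28 ± 0.09 (adjusted p = 0.0157 by edgeR), and without 13.6 replicate 1 it stood at 0.26 without a call (adjusted p = 0.0530 by edgeR). AMBRA1, which brings the complex to the ULK kinase, had log2 fold changes of −0.10 ± 0.07 with 13.6 and 0.06 ± 0.07 with 13.8 and no call.

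**Figure D3:**
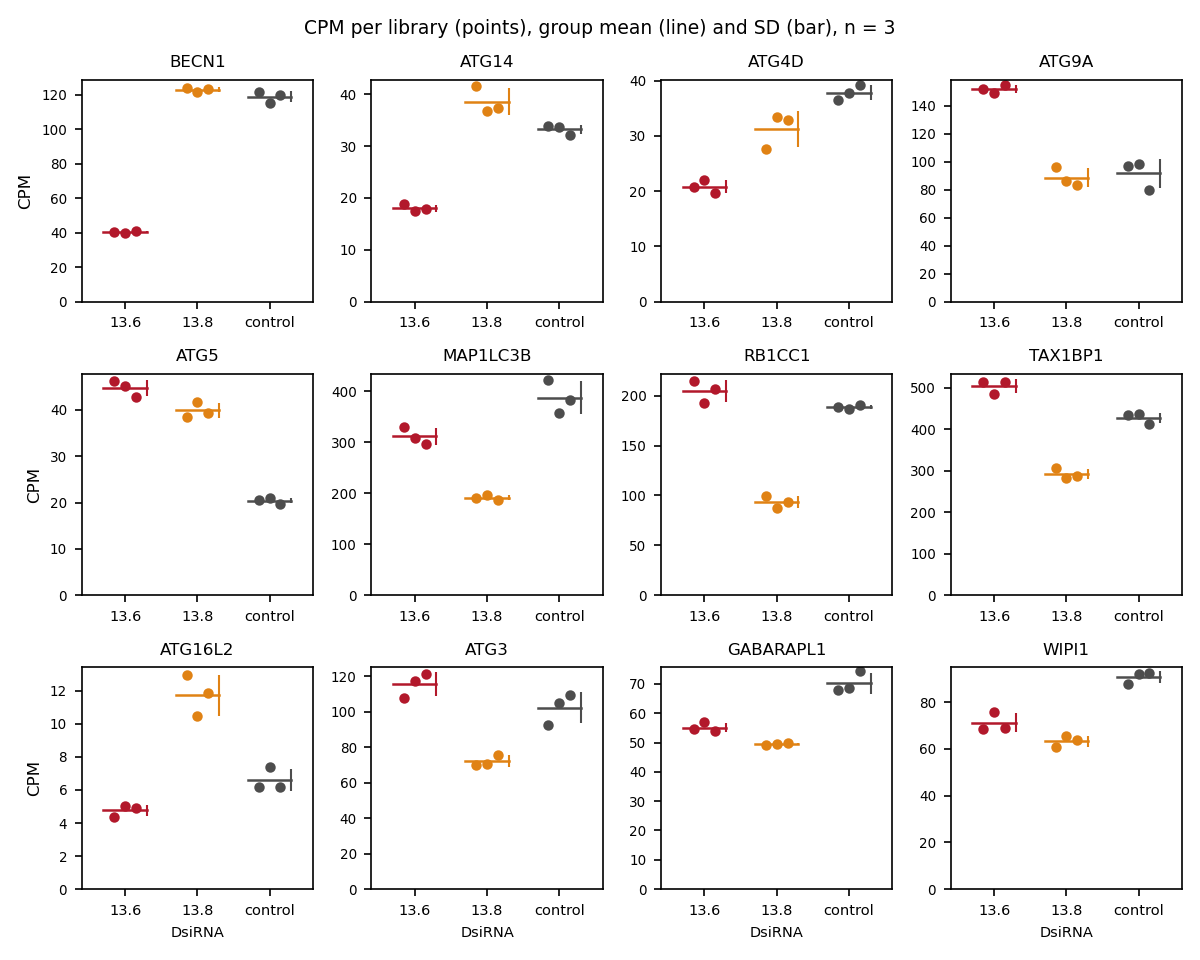
CPM of 12 of the genes in each library (points) for DsiRNA 13.6 (red), DsiRNA 13.8 (orange) and control (grey), with the group mean as a line and the SD as a bar, n = 3 each. BECN1 is low only in the 3 libraries of 13.6, at 39.9 to 40.9 CPM, RB1CC1 only in those of 13.8, at 87.6 to 99.8 CPM, and ATG5 is high in all 6 knockdown libraries, at 38.5 to 46.1 CPM.

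Genes that feed membrane to the growing autophagosome gave 2 rises and 2 falls with 13.6, and 1 rise and 2 falls with 13.8, of 5 tested. ATG9A is the transmembrane scramblase carried by the seed vesicles. ATG9A had 152, 149 and 154 CPM with 13.6, 96.2, 86.1 and 83.3 CPM with 13.8, and 96.7, 98.1 and 79.8 CPM in control cells. All 3 libraries of 13.6 were far above the rest, and those of 13.8 lay within the control range. ATG9A rose by 65.8% with 13.6 (log2 fold change 0.73 ± 0.08, adjusted p = 7.85e-06 by edgeR) and stood at −0.05 ± 0.08 with 13.8 without a call. In GENCODE 29, 43.5% of ATG9A exon bases also belong to a coding gene on the same strand, AC068946.2. How reads of these bases were counted is unknown. WIPI1, a reader of PI3P that has also been linked to melanosome formation, had 68.7, 75.9 and 69.1 CPM with 13.6, 60.7, 65.4 and 63.8 CPM with 13.8, and 87.9, 92.1 and 92.3 CPM in control cells. All 6 knockdown libraries of WIPI1 lay below the 3 controls. WIPI1 fell by 0.35 ± 0.06 on the log2 scale with 13.6 (adjusted p = 0.000393 by edgeR) and by 0.52 ± 0.06 with 13.8 (adjusted p = 1.02e-05 by edgeR), and 28.5% of its exon bases overlap ARSG on the opposite strand.

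WIPI2, the PI3P reader that recruits ATG16L1, moved the other way. WIPI2 averaged 124 ± 3.7 CPM with 13.6, 103.8 ± 0.5 CPM with 13.8, and 92.3 ± 1.0 CPM in control cells (SD, n = 3 each). WIPI2 rose by 0.43 ± 0.05 with 13.6 (adjusted p = 1.86e-05 by edgeR) and by 0.17 ± 0.05 with 13.8 (adjusted p = 0.015 by edgeR), and the call with 13.8 ended without 13.8 replicate 3 (0.16, adjusted p = 0.0546 by edgeR). ATG2A, which moves lipid from the endoplasmic reticulum into the forming membrane, averaged 51.3 ± 2.5 CPM with 13.6, 47.9 ± 4.7 CPM with 13.8, and 63.3 ± 5.9 CPM in control cells. ATG2A fell by 0.30 ± 0.09 with 13.6 (adjusted p = 0.01 by edgeR) and by 0.40 ± 0.09 with 13.8 (adjusted p = 0.00133 by edgeR). ATG2B, its paralogue with the same activity, stood at 0.05 ± 0.12 with 13.6 and −0.08 ± 0.12 with 13.8 without a call.

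Of the 7 genes of the conjugation machinery, 3 rose and 1 fell with 13.6, and 3 rose and 2 fell with 13.8. ATG5 becomes joined to ATG12 and, with ATG16L1, places ATG8 proteins on the membrane. ATG5 had 46.1, 45.2 and 42.7 CPM with 13.6, 38.5, 41.7 and 39.3 CPM with 13.8, and 20.6, 20.9 and 19.8 CPM in control cells. All 6 knockdown libraries lay far above the controls. No other gene of the 35 had a called change of at least 0.5 on the log2 scale in the same direction with each reagent. ATG5 rose 2.19-fold with 13.6 (log2 fold change 1.13 ± 0.07, adjusted p = 2.75e-08 by edgeR) and 1.95-fold with 13.8 (0.96 ± 0.07, adjusted p = 6.03e-08 by edgeR). ATG12, its ubiquitin-like partner, had 103.6, 111 and 110.4 CPM with 13.6, 68.4, 72.1 and 71.9 CPM with 13.8, and 82.2, 78.6 and 88.5 CPM in control cells. The ATG12 groups did not overlap, with 13.6 highest and 13.8 lowest. ATG12 rose by 0.38 ± 0.06 with 13.6 (adjusted p = 0.000202 by edgeR) and fell by 0.23 ± 0.06 with 13.8 (adjusted p = 0.00653 by edgeR).

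ATG16L1 and ATG16L2 are the related scaffolds of the ATG12 to ATG5 conjugate. ATG16L2 had 4.39, 5.00 and 4.90 CPM with 13.6, 12.9, 10.5 and 11.8 CPM with 13.8, and 6.21, 7.38 and 6.18 CPM in control cells. Each group of ATG16L2 was apart from the others, 13.6 lowest and 13.8 highest. ATG16L2 fell by 0.47 ± 0.12 on the log2 scale with 13.6 (adjusted p = 0.00627 by edgeR) and rose by 0.83 ± 0.12 with 13.8 (adjusted p = 4.11e-05 by edgeR), and 20.6% of its exon bases overlap FCHSD2 on the opposite strand. ATG16L1 averaged 27.4 ± 2.0 CPM with 13.6, 28.4 ± 1.6 CPM with 13.8, and 23.5 ± 0.5 CPM in control cells (SD, n = 3 each). ATG16L1 rose by 0.22 ± 0.08 with 13.6 (adjusted p = 0.0282 by edgeR) and by 0.27 ± 0.08 with 13.8 (adjusted p = 0.00744 by edgeR). The ATG16L1 call with 13.6 ended without control replicate 2 (0.21), without 13.6 replicate 1 (0.18) or without 13.6 replicate 3 (0.20).

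ATG3 is the E2-like enzyme that hands ATG8 proteins to phosphatidylethanolamine. ATG3 had 108, 118 and 121 CPM with 13.6, 70.2, 70.3 and 75.9 CPM with 13.8, and 92.9, 105 and 109 CPM in control cells. The libraries of 13.8 lay below all others, and those of 13.6 overlapped the controls. ATG3 fell by 29.5% with 13.8 (log2 fold change −0.50 ± 0.07, adjusted p = 6.09e-05 by edgeR) and stood at 0.18 ± 0.07 with 13.6 without a call (adjusted p = 0.0602 by edgeR). ATG7, the E1-like enzyme of both systems, averaged 25.0 ± 1.2 CPM with 13.6, 26.2 ± 1.1 CPM with 13.8, and 25.3 ± 1.5 CPM in control cells. Of ATG7 exon bases, 32.2% overlap VGLL4 on the opposite strand. ATG10 averaged 7.38 ± 0.49 CPM with 13.6, 7.23 ± 0.29 CPM with 13.8, and 7.55 ± 0.84 CPM in control cells. Neither enzyme had a call, with log2 fold changes of −0.02 and 0.05 for ATG7 and −0.03 and −0.06 for ATG10 with 13.6 and 13.8.

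ATG4 proteases expose the end of ATG8 proteins before conjugation and cut them off the membrane afterwards. Of the 4, only ATG4D was called against control. ATG4D had 20.7, 21.9 and 19.6 CPM with 13.6, 27.6, 33.3 and 32.8 CPM with 13.8, and 36.4, 37.8 and 39.1 CPM in control cells. The 3 groups were apart, 13.6 lowest and control highest. ATG4D fell by 45.0% with 13.6 (log2 fold change −0.86 ± 0.08, adjusted p = 2.22e-06 by edgeR) and by 17.3% with 13.8 (−0.27 ± 0.08, adjusted p = 0.0119 by edgeR). Without 13.8 replicate 1 the fall with 13.8 stood at −0.19 and was not called (adjusted p = 0.0536 by edgeR). Of ATG4D exon bases, 17.5% overlap KRI1 on the opposite strand. ATG4B, regarded as the main protease of the family, averaged 92.3 ± 1.8 CPM with 13.6, 94.7 ± 5.0 CPM with 13.8, and 98.4 ± 2.4 CPM in control cells, with log2 fold changes of −0.09 ± 0.06 and −0.06 ± 0.06. ATG4A and ATG4C had no call against control, with log2 fold changes between −0.20 and 0.12.

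In the ATG8 family, whose proteins coat the membrane and bind receptors, 2 of 4 tested genes fell with each DsiRNA and none rose. MAP1LC3B had 331, 308 and 297 CPM with 13.6, 190.3, 196 and 186 CPM with 13.8, and 423, 358 and 382 CPM in control cells. All libraries of 13.8 lay below those of 13.6, which in turn lay below the controls. MAP1LC3B fell by 19.6% with 13.6 (log2 fold change −0.31 ± 0.07, adjusted p = 0.00207 by edgeR) and by 50.8% with 13.8 (−1.02 ± 0.07, adjusted p = 6.05e-08 by edgeR). Its near copy MAP1LC3B2 measured 1.04 ± 0.19 CPM with 13.6, 0.72 ± 0.15 CPM with 13.8, and 1.32 ± 0.38 CPM in control cells. How reads that match both genes were counted is unknown. GABARAPL1 had 54.6, 56.9 and 53.9 CPM with 13.6, 49.3, 49.6 and 49.9 CPM with 13.8, and 68.0, 68.5 and 74.4 CPM in control cells. All 6 knockdown libraries of GABARAPL1 lay below the controls. GABARAPL1 fell by 0.35 ± 0.06 with 13.6 (adjusted p = 0.000297 by edgeR) and by 0.50 ± 0.06 with 13.8 (adjusted p = 1.02e-05 by edgeR).

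GABARAP and GABARAPL2, the other members measured, had no call against control. GABARAP averaged 217 ± 5.6 CPM with 13.6, 251 ± 23.2 CPM with 13.8, and 220.4 ± 23.5 CPM in control cells, and 30.5% of its exon bases also belong to a coding gene on the same strand. GABARAPL2 averaged 66.8 ± 1.1 CPM with 13.6, 63.2 ± 2.5 CPM with 13.8, and 59.4 ± 4.8 CPM in control cells. Summed over the 5 genes of the family, the libraries held 665, 654 and 633 CPM with 13.6, 524, 579 and 560.1 CPM with 13.8, and 753, 692 and 769 CPM in control cells. The sum was below all controls in each of the 6 knockdown libraries, and lowest with 13.8. It largely follows MAP1LC3B, which averaged 312 CPM with 13.6, 191 CPM with 13.8 and 388 CPM in control cells. With 13.8, GABARAP and GABARAPL2 averaged above the control mean, so the lower sum is not a fall of every gene of the family.

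Of the 4 cargo receptors, which tie ubiquitinated cargo to ATG8, 1 rose and 1 fell with 13.6, and 3 fell with 13.8. TAX1BP1 had 513, 484 and 515 CPM with 13.6, 307, 282 and 288 CPM with 13.8, and 433, 436 and 413 CPM in control cells. The groups of TAX1BP1 did not overlap, 13.6 highest and 13.8 lowest. TAX1BP1 rose by 0.24 ± 0.06 with 13.6 (adjusted p = 0.00476 by edgeR) and fell by 31.6% with 13.8 (log2 fold change −0.55 ± 0.06, adjusted p = 4.38e-06 by edgeR). NBR1, a receptor for protein aggregates and peroxisomes, had 206, 197 and 207 CPM with 13.6, 145, 129 and 140.0 CPM with 13.8, and 182, 194 and 177 CPM in control cells. The 13.6 libraries lay above and the 13.8 libraries below every control. NBR1 fell by 0.42 ± 0.06 with 13.8 (adjusted p = 7.12e-05 by edgeR) and stood at 0.14 ± 0.06 with 13.6 without a call (adjusted p = 0.0715 by edgeR).

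OPTN, a receptor for damaged mitochondria, averaged 26.2 ± 1.0 CPM with 13.6, 36.1 ± 0.6 CPM with 13.8, and 36.1 ± 2.8 CPM in control cells (SD, n = 3 each). OPTN fell with 13.6 by 0.47 ± 0.07 on the log2 scale (adjusted p = 0.000129 by edgeR) and with 13.8 stood at 0.00 ± 0.07. SQSTM1, or p62, averaged 750.2 ± 16.9 CPM with 13.6, 722 ± 56.1 CPM with 13.8, and 852 ± 100.1 CPM in control cells. SQSTM1 fell with 13.8 by 0.24 ± 0.09 (adjusted p = 0.0302 by edgeR) and stood at −0.18 ± 0.09 with 13.6 without a call. The SQSTM1 call with 13.8 ended without control replicate 1 (−0.22) or 3 (−0.17) and without 13.8 replicate 1 (−0.18) or 3 (−0.25). Of SQSTM1 exon bases, 39.8% overlap MRNIP on the opposite strand.

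The direct comparison of DsiRNA 13.6 with 13.8 asks where the 2 reagents against the same gene differed. Of the 35 genes, 23 were called, 16 higher and 7 lower with 13.6 than with 13.8. This is 65.7%, against 61.1% of all genes tested, of which 30.9% were higher and 30.2% lower. The median log2 difference was 0.14 over the 35 genes and −0.02 over all genes. A called difference of at least 0.5 on the log2 scale was found in 12 of the 35, 34.3% against 35.3% of all genes tested. In 25 of the 35, 17 above and 8 below, all 3 libraries of 13.6 lay beyond all 3 of 13.8, which is 71.4% against 68.8% of all genes. All 3 shares, taken without regard to direction, were near the background. The 23 calls split into 16 higher and 7 lower, a less even split than that of all genes (30.9% and 30.2%), which was not tested. TBX3 itself was higher with 13.6 than with 13.8 by 0.26 on the log2 scale.

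Higher with 13.6 were RB1CC1 (log2 difference 1.13 ± 0.06, adjusted p = 9.9e-09 by edgeR), TAX1BP1 (0.79 ± 0.06), ATG9A (0.78 ± 0.08), MAP1LC3B (0.71 ± 0.07), ATG13 (0.69 ± 0.05), ATG3 (0.68 ± 0.07), ATG12 (0.62 ± 0.06) and NBR1 (0.56 ± 0.06). Lower with 13.6 were BECN1 (−1.60 ± 0.05, adjusted p = 2.73e-10 by edgeR), ATG16L2 (−1.30 ± 0.12), ATG14 (−1.10 ± 0.07) and ATG4D (−0.59 ± 0.08). These 12 genes include members of each of the 7 roles. ATG5, which rose with each reagent, differed between them by 0.16 ± 0.06 (adjusted p = 0.0394 by edgeR). That ATG5 difference lost its call without 13.6 replicate 1 (0.14) or 2 (0.16) or 13.8 replicate 1 (0.14) or 3 (0.16). ATG2A, which fell with each, differed by 0.10 ± 0.09 without a call (adjusted p = 0.324 by edgeR), as did ULK3 and ATG16L1.

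**Figure D4:**
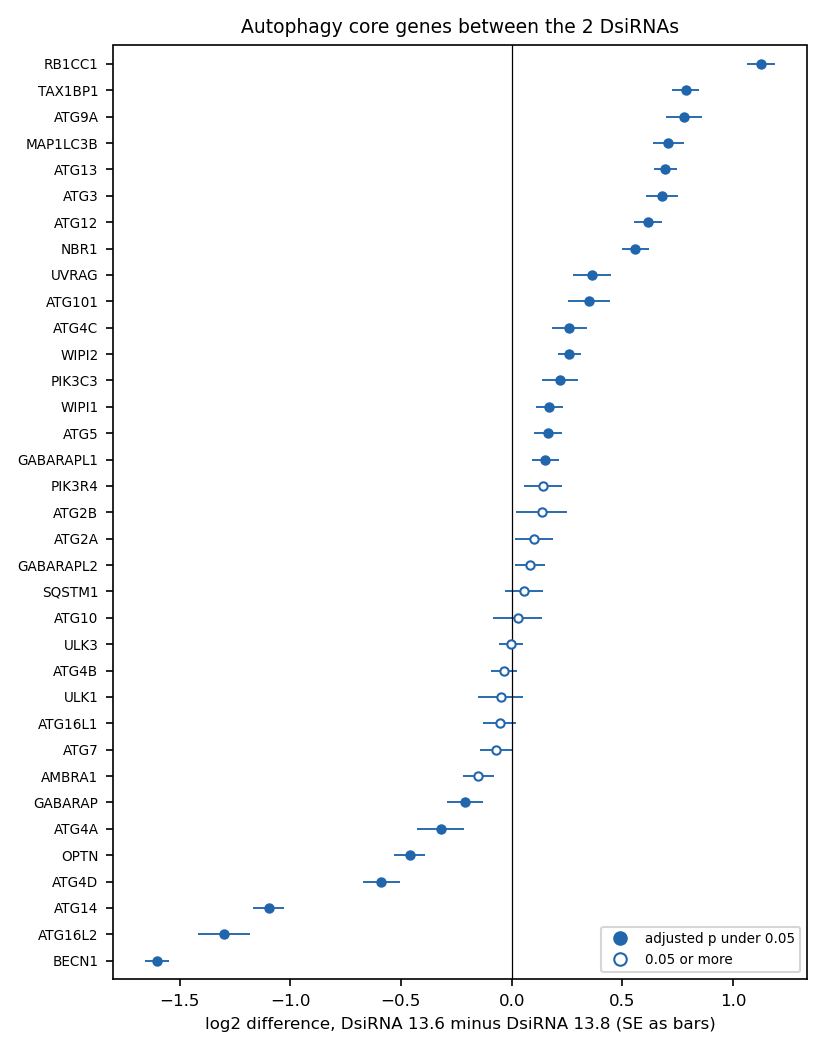
Log2 difference between DsiRNA 13.6 and 13.8 for the 35 tested genes, sorted, with bars for the SE, positive where 13.6 is higher and filled where the adjusted p is under 0.05. RB1CC1 at 1.13 is at the top, and ATG14, ATG16L2 and BECN1 at −1.10 to −1.60 are at the bottom.

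Promoters were searched for the E-box CACGTG, which MITF and its relatives TFEB and TFE3 can bind, for the longer TCACGTGA, which contains it and is the core of the CLEAR element of lysosomal and autophagy genes, and for the T-box half-site GGTGTGA. Both strands were read over 250 bases before to 50 bases after the start in RefSeq (GRCh38.p14), where 33 of the 37 genes matched with 41 promoters. CACGTG was in 3 of the 41, 7.32%, against 9.16% of 15354 promoters of tested genes, namely those of ATG3, ATG14 and ULK3. TCACGTGA was in 1, that of ATG3, which is 2.44% against 1.56%, and GGTGTGA was in none, against 2.96%. These shares describe letters in these windows only. The 2 carriers with a called change of at least 0.5 are shown with the E-box in capitals. In ATG3 it begins 18 bases before the start and again at base 6, and in ATG14 21 bases before the start.
ATG3 promoter, chr3:112561913-112562212, minus strand, GRCh38.p14: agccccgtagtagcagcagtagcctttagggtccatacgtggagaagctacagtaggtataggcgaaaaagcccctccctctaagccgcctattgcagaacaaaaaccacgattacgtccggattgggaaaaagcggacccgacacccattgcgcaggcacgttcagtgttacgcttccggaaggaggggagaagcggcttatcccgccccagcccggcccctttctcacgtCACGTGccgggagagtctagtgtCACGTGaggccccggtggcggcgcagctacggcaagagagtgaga
ATG14 promoter, chr14:55411781-55412080, minus strand, GRCh38.p14: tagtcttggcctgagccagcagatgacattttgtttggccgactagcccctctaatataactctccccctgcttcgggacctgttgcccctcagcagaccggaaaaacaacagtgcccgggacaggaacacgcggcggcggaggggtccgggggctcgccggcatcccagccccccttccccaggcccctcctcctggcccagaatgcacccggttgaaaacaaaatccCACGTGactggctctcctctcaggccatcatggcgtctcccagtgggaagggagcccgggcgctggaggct
With 13.6, the carriers ATG14 and ULK3 fell and ATG3 had no call, and with 13.8, ATG3 and ULK3 fell and ATG14 rose. MITF, a melanocyte transcription factor, stood at −0.04 ± 0.11 with 13.6 without a call and fell by 0.97 ± 0.11 with 13.8. TFEB rose by 0.33 ± 0.11 with 13.6 and fell by 0.46 ± 0.11 with 13.8. The TFEB rise lost its call without 13.6 replicate 3 (0.25), control replicate 1 (0.24) or control replicate 3 (0.30). TFE3 fell by 0.31 ± 0.06 with 13.6 and stood at 0.02 ± 0.06 with 13.8 without a call. Any part of these factors in the members' levels was not tested.

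Outside the 37 genes, 80 further genes of autophagy and its control were listed by role, and 76 were tested. With 13.6, 20 rose and 25 fell, a called share of 59.2% against 49.9% of all genes. With 13.8, 17 rose and 27 fell, 57.9% against 55.5%. Between the reagents 28 were higher and 22 lower with 13.6, 65.8% against 61.1%. The medians were −0.02, −0.10 and 0.05 on the log2 scale, beside −0.01, 0.01 and −0.02 over all genes. Among 14 membrane and PI3P partners, 4 rose and 4 fell with 13.6, and 2 rose and 3 fell with 13.8. WDR45B, a PI3P reader of the WIPI family, averaged 145.4 ± 4.7 CPM with 13.6, 53.3 ± 1.4 CPM with 13.8, and 145.7 ± 5.8 CPM in control cells (SD, n = 3 each), a fall with 13.8 of 1.45 ± 0.06. EI24, an endoplasmic reticulum protein needed for autophagosome maturation, fell with 13.8 by 1.38 ± 0.06 and stood at 0.14 ± 0.06 with 13.6. NRBF2, a partner of the ATG14 complex, rose by 0.55 ± 0.06 with 13.6 and by 0.39 ± 0.06 with 13.8. TMEM41B, a scramblase of the endoplasmic reticulum, rose by 0.65 ± 0.10 with 13.6 and stood at −0.15 ± 0.10 with 13.8.

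Genes that tether and fuse autophagosomes with lysosomes gave 4 rises and 8 falls with 13.6, and 2 rises and 10 falls with 13.8, of 17 tested. Of all genes, 24.9% rose and 25.0% fell with 13.6, and 27.5% rose and 27.9% fell with 13.8, and no test compared the list with other genes. The HOPS tethering subunit VPS18 averaged 96.4 ± 1.2 CPM with 13.6, 41.5 ± 2.4 CPM with 13.8, and 113.4 ± 3.8 CPM in control cells. VPS33A, another HOPS subunit, averaged 38.2 ± 2.8 CPM with 13.6, 74.7 ± 4.4 CPM with 13.8, and 85.8 ± 1.6 CPM in control cells. Both fell with each DsiRNA, VPS18 by 0.23 ± 0.06 with 13.6 and 1.45 ± 0.06 with 13.8, and VPS33A by 1.17 ± 0.07 with 13.6 and 0.20 ± 0.07 with 13.8. The VPS33A fall with 13.8 lost its call when control replicate 2, 13.8 replicate 2 or 13.8 replicate 3 was left out (−0.19, −0.16 and −0.20). PLEKHM1, an adaptor that binds ATG8, RAB7 and HOPS, fell by 0.59 ± 0.07 with 13.6 and 0.74 ± 0.07 with 13.8. EPG5, a tether that favours fusion with lysosomes, fell by 0.80 ± 0.10 with 13.6 and 0.52 ± 0.10 with 13.8. STX17, the fusion SNARE of the autophagosome, rose by 0.59 ± 0.06 with 13.6 and fell by 0.63 ± 0.06 with 13.8. Against the falls, the 2 rises with 13.8 were VAMP8, by 1.52, and LAMP1, by 0.19. LAMP1 also rose with 13.6, by 0.30.

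Among 19 other cargo receptors and their regulators, 5 rose and 6 fell with 13.6, and 7 rose and 4 fell with 13.8. NCOA4, the receptor for ferritin, averaged 74.6 ± 3.9 CPM with 13.6, 170.6 ± 9.5 CPM with 13.8, and 208.5 ± 14.1 CPM in control cells, falls of 1.48 ± 0.07 and 0.29 ± 0.07. RTN3, a receptor for the endoplasmic reticulum, rose by 0.73 ± 0.07 with 13.6 and 1.18 ± 0.07 with 13.8. CALCOCO1, a further receptor for the endoplasmic reticulum, fell by 0.64 ± 0.06 with 13.6 and rose by 0.50 ± 0.06 with 13.8. Among 25 nutrient kinases and transcription factors, 7 rose and 7 fell with 13.6, and 6 rose and 9 fell with 13.8. MTOR, the kinase that restrains the ULK complex, fell by 0.40 ± 0.08 with 13.6 and 0.67 ± 0.08 with 13.8. Its inhibitor DEPTOR rose by 0.94 ± 0.15 and 1.85 ± 0.15. TSC2, from the same list, had the lowest log2 fold change of the list with 13.6, at −0.57. RRAGC rose by 0.29 with 13.6 and fell by 0.36 with 13.8. MTOR activity was not measured, so no direction of it is read from these levels. RRAGD, a Rag GTPase, rose by 0.53 ± 0.05 with 13.6 and 0.57 ± 0.05 with 13.8.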

How the data were processed

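RNA-seq of total RNA from 9 libraries was analysed from the authors' deposited table of raw counts of reads per gene symbol. The submitters' processing notes name hg19 as the build and STAR, HTSeq, cutadapt, FastQC and DESeq2 as tools. No version, annotation or strand setting of the counting was found in the sources used here. The authors' deposited log2 normalized table was not used. Repeated entries with identical counts were dropped, leaving 25382. In R 4.3.3, edgeR 4.0.16 with TMM scaling and the preset of filterByExpr (at least 10 reads) kept 14731 genes. A robust quasi-likelihood model with 1 mean per group on all 9 libraries (6 residual degrees of freedom) gave two-sided tests of 3 comparisons. P-values were Benjamini-Hochberg adjusted over all genes tested, and a call is an adjusted p under 0.05. SEs are the log2 fold change divided by the root of the F statistic. The fit was tried on simulated counts in which 200 genes were changed. Far more genes were called here, so the simulation does not show how the fit behaves when changes are this widespread.

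The members and lists were chosen with earlier results of these data known. Genes called with at least 0.5 on the log2 scale in any comparison are given library by library. From the further lists, up to 4 genes each with the smallest adjusted p in a comparison are given, plus genes that went against their list. Exon lengths, overlaps and 3′ UTRs came from GENCODE 29 and promoters from RefSeq. Replicates of a group differed beyond counting error (chi-square per degree of freedom 4.98 to 43.1), so no library was a copy of another. The 17 alternatives were DESeq2 1.42.0, limma-voom (limma 3.58.1), DESeq2 size factors, library totals, no filter, a mean of at least 50 reads, only the 2 groups compared, a replicate block, and leaving out each of the 9 libraries.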

Additional observations from a re-analysis of the deposited data

Results flagged for a closer look

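In 5 genes the DsiRNAs gave calls against control in opposite directions. The genes were chosen for that, with shared controls, and the difference between the reagents then follows from the choice, so it is given as a value and with no test. ATG12, the ubiquitin-like partner of ATG5, was higher with 13.6 than with 13.8 by 0.615 on the log2 scale. ATG13, the adaptor of the ULK complex, was higher with 13.6 by 0.695, and TAX1BP1, a cargo receptor, by 0.786. ATG14, the autophagy-specific subunit of the PI3-kinase complex, had a log2 difference of −1.10 between 13.6 and 13.8, and ATG16L2 one of −1.30. In all 5, the 3 libraries of 13.6 and the 3 of 13.8 lay on opposite sides of all 3 controls. This too largely follows from the choice, so nothing is read from it. The call of ATG14 against control with 13.8 ended without 13.8 replicate 1 (0.16).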

How the results depend on the processing

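No count of calls moved by more than 1.5 times, and no call of a member or further gene changed sign, under any of the 17 alternatives. Leaving out 1 library gave 16 to 21 calls with 13.6, 18 to 23 with 13.8 and 18 to 24 between the reagents, beside 19, 21 and 23. For the further genes it gave 40 to 49, 38 to 51 and 42 to 53, beside 45, 44 and 50. The other alternatives gave 18 to 22, 19 to 23 and 20 to 24 calls. Of the calls, 15 of 19, 15 of 21 and 17 of 23 were kept under every alternative. Apart from the libraries named beside the results, PIK3C3 and ATG16L1 with 13.6 were lost under library totals, ULK3 with 13.6 and WIPI2 with 13.8 without a filter, and SQSTM1 and ULK3 with 13.8 with a mean of at least 50 reads. PIK3C3 was also lost with DESeq2 size factors, and ULK3 with each DsiRNA and SQSTM1 with 13.8 when only the 2 groups were fitted. Between the reagents, ATG4A, ATG5, GABARAP, GABARAPL1, PIK3C3 and WIPI1 lost their call under at least 1 alternative. Same-numbered libraries of different groups had correlations of their deviations from −0.283 to 0.340 (median 0.15, 9 pairs), and differently numbered ones from −0.467 to 0.323 (median −0.091, 18 pairs). Not every same-numbered pair passed 0.1, so the numbers were not taken as a pairing, and not every library correlated best with its own number. With the replicate block, 22, 23 and 23 of the 35 genes were called, and 49, 50 and 54 further genes, and no call of the 35 was lost. Scaling by library totals moved the median of all genes by at most 0.05 on the log2 scale. At this depth and with 3 libraries a group, the log2 changes without a call ran from −0.20 to 0.26 with 13.6 and from −0.19 to 0.19 with 13.8.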
